A study of Mus musculus with 6 samples.

Results

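NF-κB subunits and their inhibitors were examined in C1498 cells, a mouse leukemia line on the C57BL/6J background, after PARP-1 inhibition. The 10 genes were the subunits Nfkb1, Nfkb2, Rel, Rela and Relb and the inhibitors Nfkbia, Nfkbib, Nfkbie, Nfkbiz and Tnfaip3. Each was read from the probe set that carries its symbol alone, the one with the highest mean where a gene has several, and 9 of the 10 had 1 such probe set each, among 19938 genes measured in this way. Nfkb1, which encodes the p105 precursor of p50, has none in the gene table used and was not analysed here. Cells were treated with PJ34, a small-molecule inhibitor of PARP-1, at 20 μM for 48 h or with PBS for the same time, and 3 arrays were hybridized per group. Both groups were the same untransduced line in DMEM with fetal bovine serum, so that every value is of 1 cell line at a single dose and time. Values are log2 expression values, so that a difference of 1 is a doubling of signal, and arrays do not allow the level of a gene to be set against that of another.

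NF-κB is a family of dimeric transcription factors that share the Rel homology region. In resting cells the dimers are held in the cytoplasm by IκB proteins. Receptors of TNF, interleukin 1, microbial products and antigen activate the IκB kinase complex (IKK), which marks IκB for degradation and so frees the dimers to enter the nucleus. Among the genes they then switch on are those of their own inhibitors, and this feedback ends the response. PARP-1 has itself been described as a coactivator of NF-κB.

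The cells were labelled acute myeloid leukemia cells. Of 16 myeloid markers, all measured, 12 lay below 4.43, the median of all values on the arrays, among them Cd33, Mpo, Csf1r, Itgam and Spi1. The other 4, Fcgr1, Cd68, Cebpa and Cebpe, had means of 7.14, 4.97, 4.86 and 4.83, above the median. Of 17 measured markers of T and NK cells, 9 lay above it, and among the chains of the T cell receptor complex Cd3e and Cd3g had means of 10.5 and 11.1, Cd3d had one of 4.76, and Cd247 lay below the median. All 6 measured B cell markers lay below the median, while 3 of 6 fibroblast markers lay above it, so that lying above the median does not by itself mark a cell type here. The mean over the T and NK markers was 5.87 to 5.89 on the PBS arrays and 6.03 to 6.10 on the PJ34 arrays. Of these 17 markers, 3 were called higher and 1 lower (limma, adjusted p under 0.05), beside 1.72% and 1.34% of all probe sets. The called markers were Cd7, Cd28 and Gata3 (log2 fold changes 1.66, 1.44 and 0.34) and Bcl11b (-0.33). The shift of the mean thus rests mostly on Cd7 and Cd28. The mean of the myeloid markers was 3.76 to 3.83 with PBS and 3.83 to 3.94 with PJ34. Of the 16, 2 were called higher, Fcgr1 and Cd68, and none lower, beside the same shares of all probe sets. Whether these shifts have a part in the values of the NF-κB genes was not tested. In such bulk RNA a change in the share of cells that express a gene and a change of RNA per cell cannot be told apart.

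The RefSeq promoters (GRCm38.p6) of 7 of the 10 genes were available, and Nfkb1, Relb and Nfkbiz were not matched. The 250 bases before each annotated start were searched on both strands for the κB motif GGGRNNYYCC, the AP-1 motif TGANTCA and the cyclic AMP response element TGACGTCA. In these letters R is A or G, Y is C or T, and N is any base. The κB motif was found for 5 of the 7 genes, Nfkbia, Tnfaip3, Rel, Nfkb2 and Nfkbie, and not for Rela or Nfkbib. Of all 27025 genes with promoters, 8.23% had the motif. Among the 10 annotated promoters of the 7 genes, 7 held it, against 7.25% of the 32851 mouse promoters of that length. Of the 10, 2 overlap at Nfkb2. The AP-1 motif was found for Nfkb2, Nfkbie and Tnfaip3, in 3 of the 10 promoters (6.75% of all promoters). The cyclic AMP response element was in none of the 10 (1.55% of all promoters). A match describes these letters and does not show binding, and no match says only that the letters are not in this window. The following 5 promoters are shown as examples. Nfkbia, Tnfaip3 and Rel are the genes with a matched promoter that passed the test below, Nfkb2 did not pass and is shown for its κB matches, and Nfkbib had the smallest difference. The choice was made with the matches and the differences known, so that it says nothing of a relation between them. They read 5′ to 3′ toward the start, and capitals mark the κB motif on either strand.

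Nfkbia (chr12:55492648-55492897, minus strand): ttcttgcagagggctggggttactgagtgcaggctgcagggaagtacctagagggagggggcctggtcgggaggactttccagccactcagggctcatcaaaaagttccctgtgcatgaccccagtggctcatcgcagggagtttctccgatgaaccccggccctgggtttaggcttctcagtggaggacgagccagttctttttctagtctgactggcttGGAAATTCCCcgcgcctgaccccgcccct
Tnfaip3 (chr10:19015411-19015660, minus strand): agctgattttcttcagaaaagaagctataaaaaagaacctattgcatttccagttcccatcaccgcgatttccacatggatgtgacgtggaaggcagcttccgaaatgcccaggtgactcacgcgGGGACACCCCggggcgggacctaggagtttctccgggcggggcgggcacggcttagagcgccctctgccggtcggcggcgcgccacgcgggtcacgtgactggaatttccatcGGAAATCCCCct
Rel (chr11:23770970-23771219, minus strand): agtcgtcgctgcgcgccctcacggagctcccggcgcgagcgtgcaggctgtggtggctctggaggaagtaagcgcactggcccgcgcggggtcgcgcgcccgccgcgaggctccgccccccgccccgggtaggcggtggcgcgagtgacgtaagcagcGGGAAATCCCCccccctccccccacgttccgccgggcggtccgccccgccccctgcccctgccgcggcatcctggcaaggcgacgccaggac
Nfkb2 (chr19:46304487-46304736, plus strand): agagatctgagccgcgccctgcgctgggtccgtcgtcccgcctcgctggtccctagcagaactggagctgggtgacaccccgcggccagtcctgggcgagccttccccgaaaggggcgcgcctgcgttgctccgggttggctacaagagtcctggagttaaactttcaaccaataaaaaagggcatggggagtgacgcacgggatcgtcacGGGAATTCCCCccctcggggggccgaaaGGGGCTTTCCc
Nfkbib (chr7:28766645-28766894, minus strand): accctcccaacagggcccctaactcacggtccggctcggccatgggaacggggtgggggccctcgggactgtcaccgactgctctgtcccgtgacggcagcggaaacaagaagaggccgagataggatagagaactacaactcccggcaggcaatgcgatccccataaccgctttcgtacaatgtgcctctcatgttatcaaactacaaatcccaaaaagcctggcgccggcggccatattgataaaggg

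In Nfkbia, the match lay 29 to 20 bases before the start. In Rel, overlapping matches covered bases 92 to 82, and in Nfkb2 they covered bases 39 to 29 with another at 11 to 2. The Tnfaip3 promoter held matches at 125 to 116 and 12 to 3, and a second annotated start of Tnfaip3 held none.

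With PJ34, 4 of the 9 measured genes rose and none fell (limma, adjusted p under 0.05). They were the inhibitors Nfkbia and Tnfaip3 and the subunits Rel and Relb, with rises of 1.30-fold to 1.43-fold. Of all 23411 probe sets tested, 1.72% were higher and 1.34% were lower by this rule, a balance that turned with arrays centred on their medians (333 higher and 365 lower). Each of the 9 genes had a mean above the median of all values. Without the probe sets below that median, 892 of 12661 were higher and 779 were lower, and the same 4 genes passed. The members were chosen with earlier results of these data known, so that such shares do not test them as a group. At an unadjusted p under 0.05, 7 members were higher and none was lower, beside 8.95% and 7.74% of all probe sets, and the methods' t-test after adjustment called 1 member higher and none lower. The PJ34 values of 8 members all lay above the PBS values, as did those of 12.6% of all probe sets, while for no member did they all lie below (10.9% of all probe sets). For each of the 8 the exact two-sided permutation test gave p = 0.1, the smallest that 3 arrays against 3 allow. The median log2 fold change was 0.27 for the 9 genes, 0.27 for the 4 subunits and 0.27 for the 5 inhibitors, beside 0.00 over all probe sets. The 4 calls were not equally stable, since leaving out 1 array left 1 or 2 of them. With all probe sets of the array in the test, Nfkbia alone passed.

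**Figure D1:**
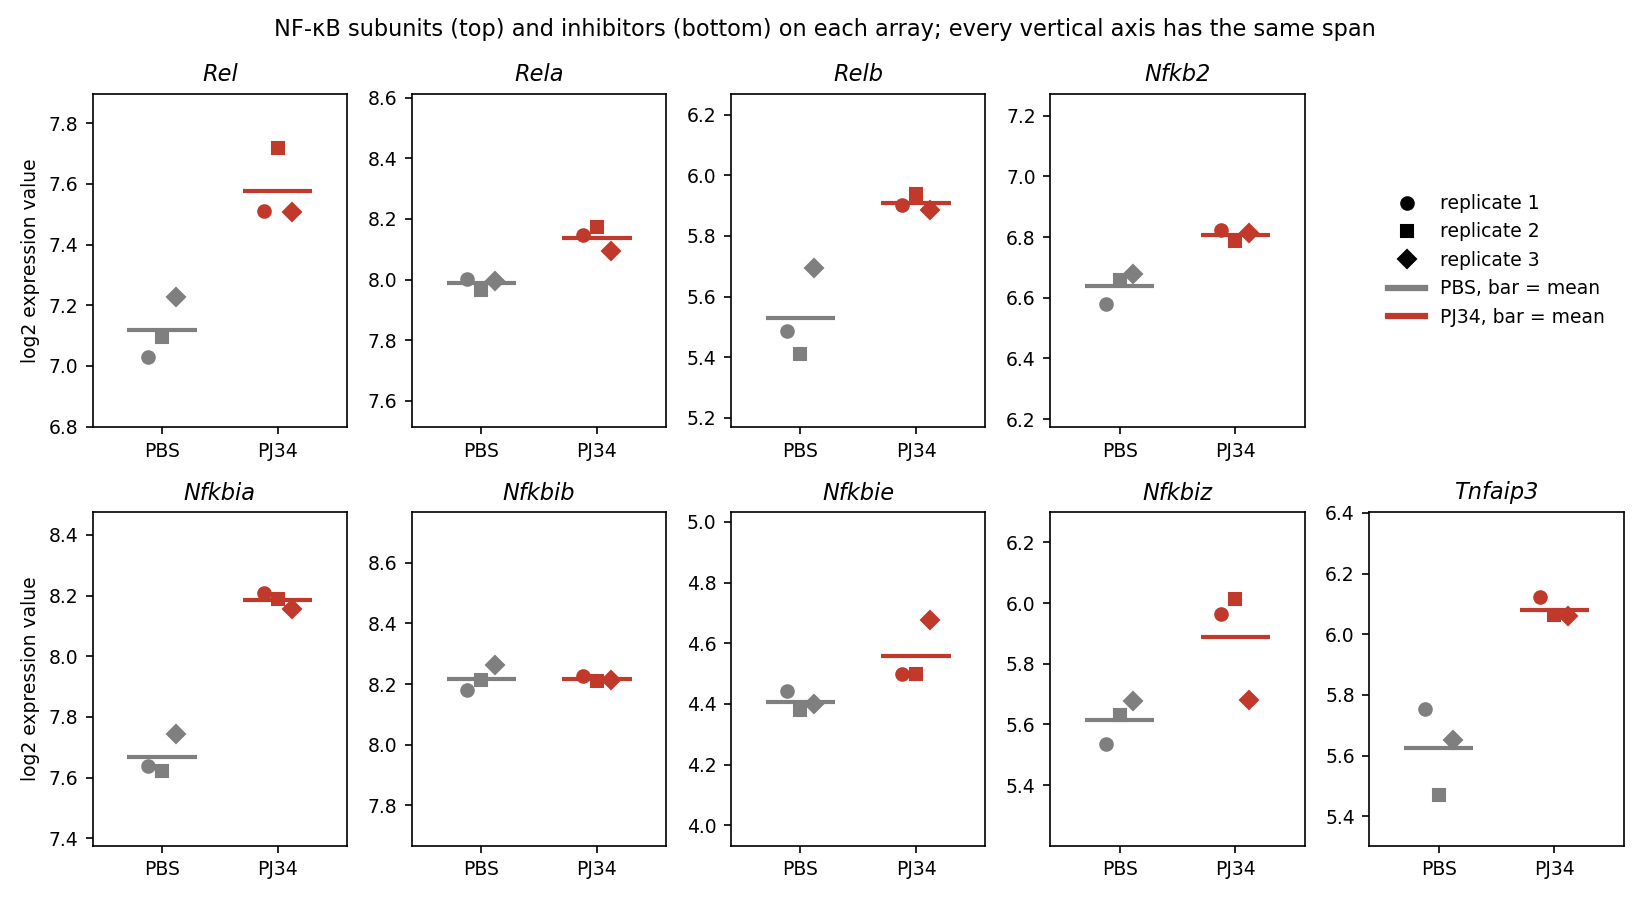
Log2 expression value (vertical axis) of the 4 measured NF-κB subunits (top) and the 5 inhibitors (bottom) by array, with 3 PBS arrays in grey and 3 PJ34 arrays in red. Bars are group means, and symbols show the replicate number. PJ34 values lie above all PBS values in each panel except Nfkbib, and in Nfkbiz the gap is 0.0059.

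Among the subunits, Rel encodes c-Rel, a transactivating subunit prominent in lymphocytes. Its log2 values were 7.03, 7.10 and 7.23 on the PBS arrays and 7.51, 7.72 and 7.51 on the PJ34 arrays. The groups were 0.28 apart at their nearest values, and PJ34 replicate 2 stood above the other two. Rel was 1.38-fold higher with PJ34 (95% confidence interval 1.20 to 1.57, log2 fold change 0.46 ± 0.085 SE, limma adjusted p = 0.0269). The call was lost when any 1 of the 6 arrays was left out (limma adjusted p = 0.0534 to 0.108), with log2 fold changes of 0.39 to 0.51.

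Rela encodes RelA (p65), the most widely expressed transactivating subunit. Rela measured 8.00, 7.97 and 8.00 with PBS and 8.15, 8.17 and 8.10 with PJ34. The groups did not overlap, but the difference was small and did not pass (log2 fold change 0.15 ± 0.060 SE, limma adjusted p = 0.249). Within each array, Rel minus Rela was -0.97, -0.87 and -0.77 with PBS and -0.64, -0.45 and -0.59 with PJ34. The change of Rel minus that of Rela was 0.31 on the log2 scale, and the groups did not overlap (exact two-sided permutation p = 0.1, the smallest possible).

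Relb encodes the partner of p52 in the noncanonical branch of the pathway, and Nfkb2 encodes p100, the precursor of p52, which also acts as an IκB. Relb was at 5.49, 5.41 and 5.69 on the PBS arrays and at 5.90, 5.94 and 5.89 on the PJ34 arrays. The PJ34 values lay close together (SD 0.027) and the PBS values were more spread (SD 0.15), with PBS replicate 3 the highest of them. Relb was 1.30-fold higher (1.14 to 1.48) with a log2 fold change of 0.38 (± 0.082 SE, limma adjusted p = 0.0487). This call was at the edge of the threshold. It was lost with arrays centred on their medians (limma adjusted p = 0.0618) and when any 1 array other than PBS replicate 3 was left out (adjusted p = 0.104 to 0.165). Without PBS replicate 3 it passed (limma adjusted p = 0.0411).

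For Nfkb2 the values were 6.58, 6.66 and 6.68 with PBS and 6.82, 6.79 and 6.81 with PJ34. They did not overlap but did not pass (log2 fold change 0.17 ± 0.061 SE, limma adjusted p = 0.202). Relb minus Nfkb2 was -1.09, -1.25 and -0.98 with PBS and -0.92, -0.85 and -0.93 with PJ34, a difference of 0.21 between the groups (exact two-sided permutation p = 0.1). The pairs were chosen after the values were seen, 3 were compared in this report, and the Benjamini-Hochberg adjusted p was 0.1 for each.

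**Figure D2:**
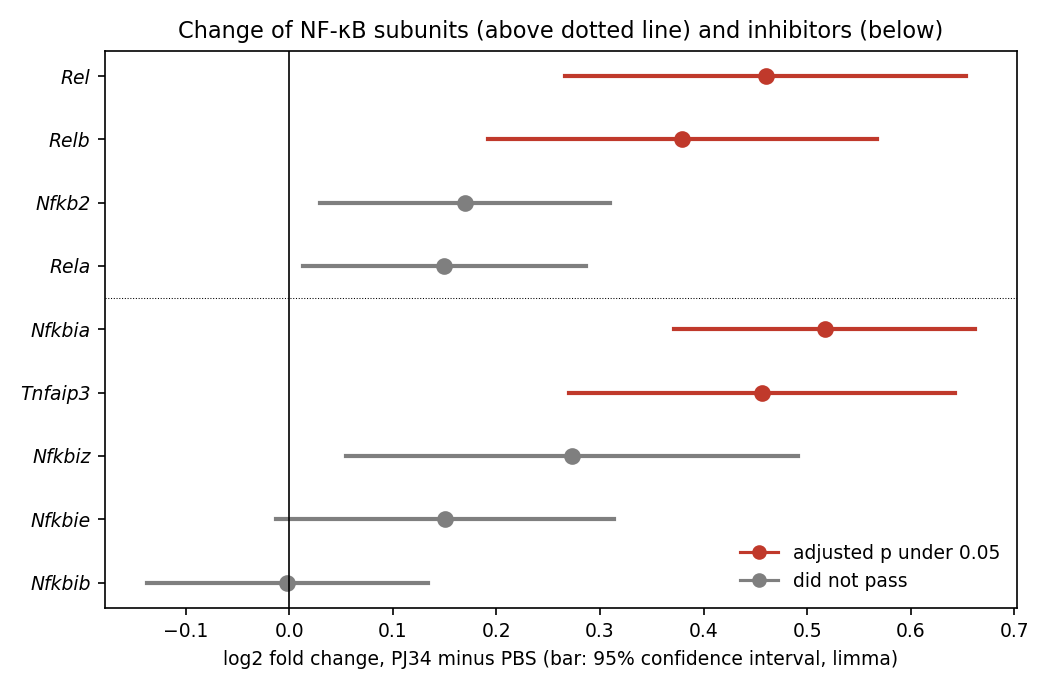
Difference of PJ34 from PBS on the log2 scale (horizontal axis) for each NF-κB subunit (above the dotted line) and inhibitor (below), with the 95% confidence interval from limma. Red marks the 4 genes with an adjusted p under 0.05, and Nfkbib lies at 0.00 with an interval of -0.14 to 0.13.

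Among the inhibitors, Nfkbia encodes IκBα, the classical feedback inhibitor that retains RelA and c-Rel dimers in the cytoplasm. Its log2 values were 7.64, 7.62 and 7.74 with PBS and 8.21, 8.19 and 8.16 with PJ34. The nearest values of the groups were 0.41 apart, the widest gap among the members. Nfkbia was 1.43-fold higher with PJ34 (1.29 to 1.58, log2 fold change 0.52 ± 0.064 SE, limma adjusted p = 0.00625). The rise still passed when any 1 of the 6 arrays was left out (limma adjusted p = 0.0205 to 0.0369) and under each of the 6 other settings tried.

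Nfkbib encodes IκBβ, a paralog with the same target dimers that is not part of the rapid feedback. It measured 8.18, 8.21 and 8.26 with PBS and 8.23, 8.21 and 8.21 with PJ34. The groups overlapped, the log2 fold change was 0.00 (± 0.060 SE, limma adjusted p = 0.992), and the 95% confidence interval of the fold ran from 0.909 to 1.10. Nfkbia minus Nfkbib was -0.54, -0.59 and -0.52 on the PBS arrays and -0.02, -0.02 and -0.06 on the PJ34 arrays. The groups did not overlap in this difference and were 0.52 apart on average on the log2 scale, with the smallest p that the exact permutation test can give (p = 0.1, two-sided).

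Nfkbie encodes IκBε, a later-acting feedback inhibitor. Its values were 4.44, 4.38 and 4.40 with PBS and 4.50, 4.50 and 4.68 with PJ34. PJ34 replicate 3 stood apart, and the mean of the 6 arrays, 4.48, was close to the median of all values, where an unknown share of signal is background. The log2 fold change of 0.15 (± 0.071 SE) did not pass (limma adjusted p = 0.342).

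Nfkbiz encodes IκBζ, a nuclear IκB that is induced by NF-κB and can also promote transcription of secondary targets. It was at 5.53, 5.63 and 5.68 with PBS and at 5.97, 6.01 and 5.68 with PJ34. PJ34 replicate 3 was 0.0059 above the highest PBS value, while the other PJ34 arrays were clearly higher. The log2 fold change of 0.27 (± 0.095 SE) did not pass (limma adjusted p = 0.189).

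Tnfaip3 encodes A20, a ubiquitin-editing enzyme that shuts off signalling upstream of IKK. Tnfaip3 measured 5.75, 5.47 and 5.65 on the PBS arrays and 6.12, 6.06 and 6.06 on the PJ34 arrays. The spread lay among the PBS arrays (SD 0.14), PBS replicate 2 being the lowest, and the groups were 0.31 apart. It was 1.37-fold higher (1.21 to 1.56, log2 fold change 0.46 ± 0.082 SE, limma adjusted p = 0.0234). The call was kept without PBS replicate 1 (adjusted p = 0.0377) and lost when any 1 of the other 5 arrays was left out (limma adjusted p = 0.0559 to 0.0885).

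**Figure D3:**
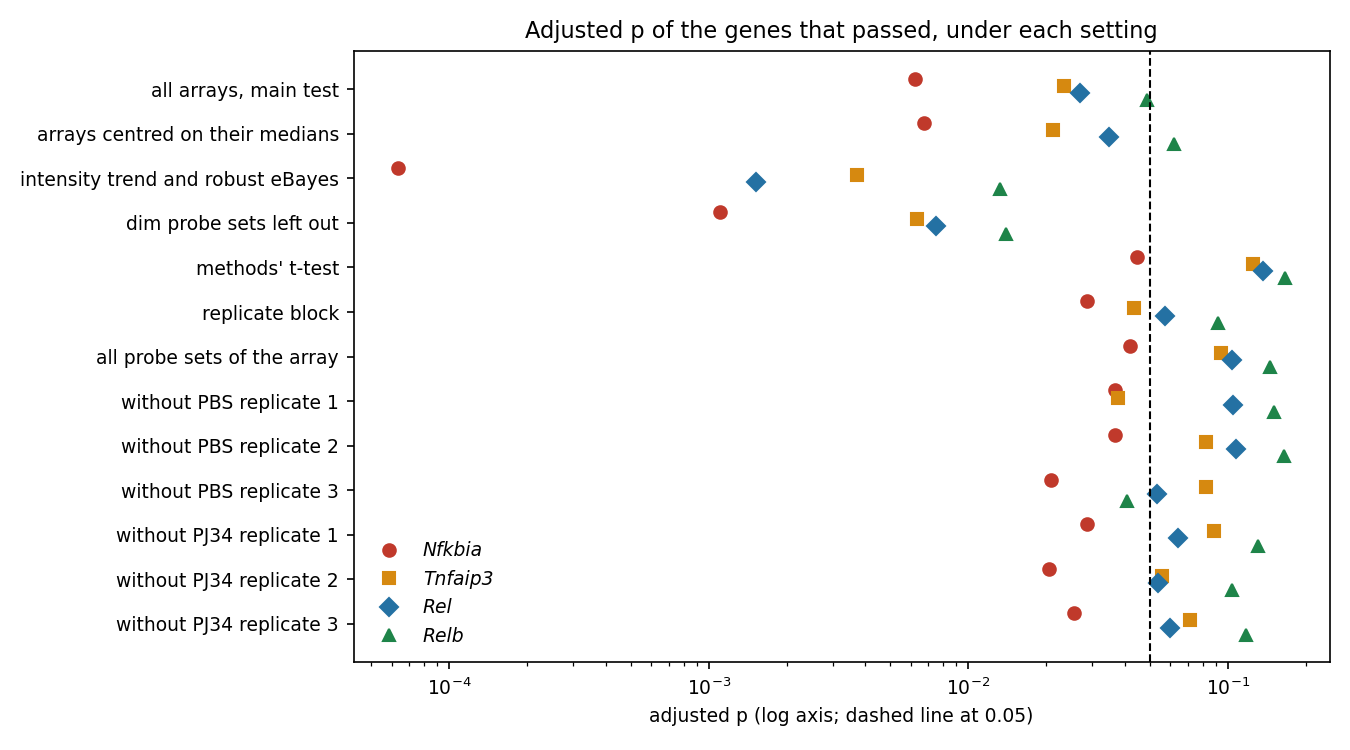
Adjusted p (horizontal log axis, dashed line at 0.05) of Nfkbia, Tnfaip3, Rel and Relb in the main test and under each of 12 other settings (vertical axis). Nfkbia lies left of the line in every row, while Rel, Relb and Tnfaip3 cross it in most rows that leave out 1 array.

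Other genes of the pathway were read from 6 lists. Among 19 other inhibitors and restraining factors, Nfkbid rose and none fell (limma, adjusted p under 0.05), beside 1.72% of all probe sets higher and 1.34% lower. Nfkbid encodes a nuclear IκB and measured 5.71, 5.80 and 5.73 with PBS and 6.17, 6.28 and 6.04 with PJ34 (log2 fold change 0.42 ± 0.078 SE, limma adjusted p = 0.0283). Its call was kept without PJ34 replicate 3, and without any 1 of the other 5 arrays the adjusted p was 0.0555 to 0.108 from limma. The other 18 ran from -0.26 to 0.31. At an unadjusted p under 0.05, 3 genes of the list (Nfkbid among them) were higher and 2 were lower, beside 8.95% and 7.74% of all probe sets.

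The list of the IKK complex and activating kinases had 15 measured genes, and it also holds the adaptors Tank, Azi2, Tab1, Tab2 and Tab3. Of the 15, Prkcq rose and none fell (limma, adjusted p under 0.05), beside 1.72% of all probe sets higher and 1.34% lower. At an unadjusted p under 0.05, 3 (Prkcq among them) were higher and 2 were lower, beside 8.95% and 7.74% of all probe sets. Prkcq encodes protein kinase C theta, which links the T cell receptor to IKK. Its values were 7.76, 7.75 and 7.78 with PBS and 8.51, 8.53 and 8.41 with PJ34, a rise of 1.64-fold (1.49 to 1.82, limma adjusted p = 0.00132) that passed without any 1 of the 6 arrays. The catalytic subunit Ikbkb had a log2 fold change of 0.04 (± 0.066 SE) and the regulatory subunit Ikbkg one of -0.17 (± 0.063 SE), and neither passed (limma adjusted p = 0.840 and 0.214). Ikbkb and Ikbkg are named here after their values were seen. The other catalytic subunit, Chuk, has no probe set that carries its symbol alone and was not read.

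None of 20 measured adaptors and ubiquitin ligases passed (limma, adjusted p under 0.05), beside 1.72% of all probe sets higher and 1.34% lower. By limma's unadjusted p under 0.05, 2 were higher and 1 was lower, beside 8.95% and 7.74% of all probe sets. The methods' t-test passed none after adjustment. The lowest p was that of Birc3, an inhibitor of apoptosis and ubiquitin ligase of the TNF receptor complex, with values of 6.24, 6.36 and 6.11 with PBS and 6.53, 6.74 and 6.51 with PJ34 (log2 fold change 0.36 ± 0.091 SE, limma adjusted p = 0.0790). None of 25 ligands and receptors passed either, and none did by the methods' t-test after adjustment. At limma's unadjusted p under 0.05, 5 were higher and none was lower, beside 8.95% and 7.74% of all probe sets. Here the lowest p was that of Tnfrsf9, the costimulatory receptor 4-1BB, at 5.21, 5.32 and 5.27 with PBS and 5.58, 5.54 and 5.48 with PJ34 (log2 fold change 0.27 ± 0.064 SE, limma adjusted p = 0.0703).

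Of 50 known targets, all measured, 7 rose and none fell, a share of 14.0% higher beside 1.72% of all probe sets. The list was chosen with earlier results of these data known, so that this share is no test of NF-κB targets as a group. By limma's unadjusted p under 0.05, 15 targets were higher and 2 were lower, beside 8.95% and 7.74% of all probe sets. After adjustment, the methods' t-test called 1 higher (Il2) and none lower. The cytokine Il2, with 5.75, 5.64 and 5.84 on the PBS arrays and 6.93, 6.91 and 6.74 on the PJ34 arrays, was 2.17-fold higher (1.91 to 2.47, limma adjusted p = 0.000686). The chemokine Ccl3 was at 4.34, 3.93 and 4.14 with PBS and at 4.96, 5.12 and 4.84 with PJ34 (log2 fold change 0.83 ± 0.11 SE). The growth factor Csf2 was at 3.81, 3.92 and 3.81 with PBS and at 4.37, 4.68 and 4.40 with PJ34 (0.63 ± 0.092 SE), with a mean below the median of all values. These 3 cytokine genes passed without any 1 of the 6 arrays, and AP-1 and NFAT factors are known to act on them as well. Of the 3, only Il2 also passed by the methods' t-test after adjustment and with all probe sets of the array. Ccl3 and Csf2 had adjusted p = 0.114 and 0.110 by that t-test. With all probe sets, their limma adjusted p was 0.0570 and 0.0589. The hyaluronan receptor Cd44 (0.49) lost its call without PBS replicate 2 (limma adjusted p = 0.0501). Slfn2 (0.45), a regulator of T cell quiescence, passed without PBS replicate 3 or PJ34 replicate 2 only (adjusted p = 0.0528 to 0.0832 in the other 4 fits). Gadd45b (0.47), a stress-inducible protein, passed without PJ34 replicate 2 only (0.0611 to 0.0776 in the others), and Ccr7 (0.52), a chemokine receptor named here after its value was seen, passed without PBS replicate 1 only (0.0615 to 0.139). The median log2 fold change of the targets was 0.10, and 27 of the 50 lay below the median of all values.

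**Figure D4:**
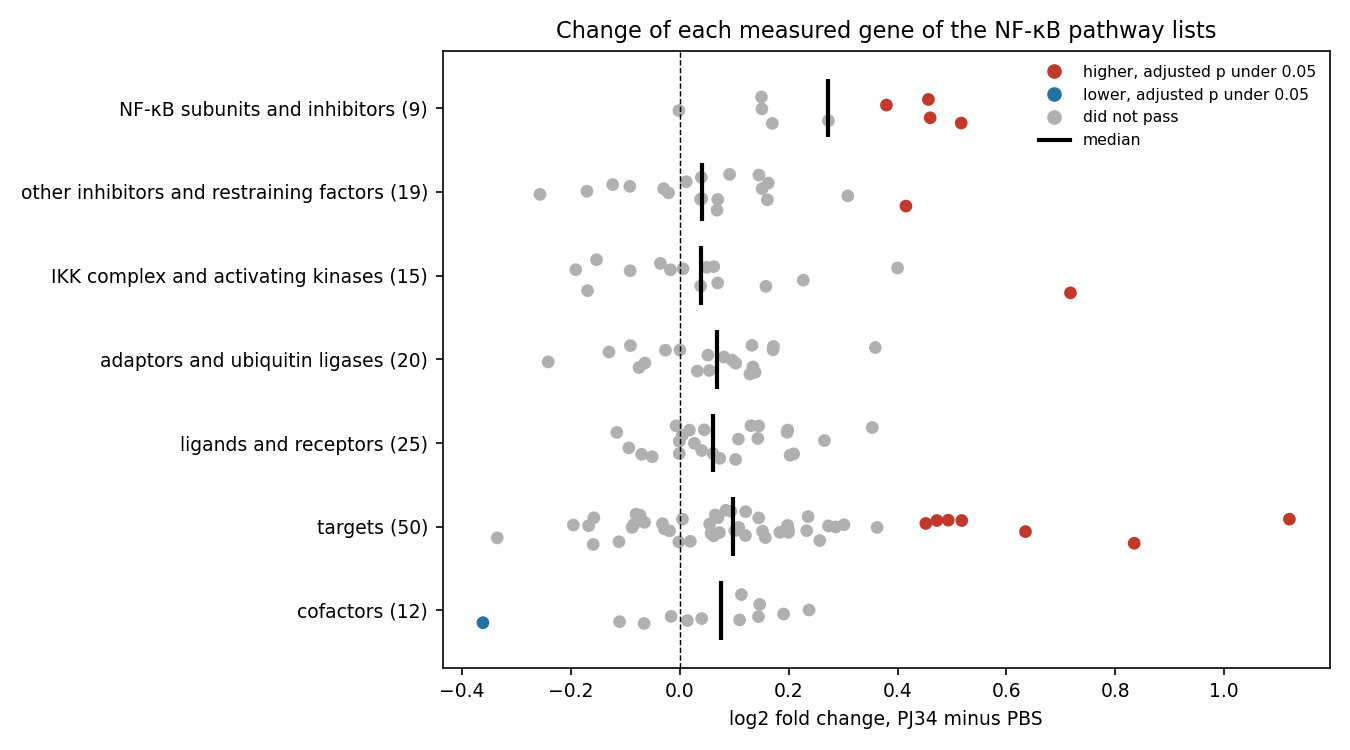
Difference of PJ34 from PBS on the log2 scale (horizontal axis) for every measured gene of the NF-κB subunits and inhibitors and of 6 further lists, each list in its own row with its number of genes in parentheses. Red and blue points passed an adjusted p of 0.05 upward and downward, the rest are grey, and black bars give the medians, 0.27 in the top row and 0.10 for the targets.

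Of 12 measured cofactors, Sirt6 fell and none rose (limma, adjusted p under 0.05), beside 1.34% of all probe sets lower and 1.72% higher. After adjustment, none passed by the methods' t-test. By limma's unadjusted p under 0.05, 3 were higher and 1 (Sirt6) was lower, beside 8.95% and 7.74% of all probe sets. Sirt6, a deacetylase that acts on chromatin at NF-κB target genes, measured 6.83, 7.05 and 6.99 with PBS and 6.67, 6.53 and 6.59 with PJ34 (log2 fold change -0.36 ± 0.077 SE, limma adjusted p = 0.0458). The call was lost when any 1 array was left out (limma adjusted p = 0.0520 to 0.165). Parp1, the gene of the inhibited enzyme, was at 9.13, 9.20 and 9.18 with PBS and at 9.13, 9.17 and 9.02 with PJ34, and its log2 fold change of -0.07 (± 0.066 SE) did not pass (limma adjusted p = 0.697). PJ34 acts on the enzyme, so that its mRNA does not check the treatment.

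Over the 6 arrays, the values of Nfkbia ran most closely with those of Nr4a1, a nuclear receptor of the immediate early response (Pearson r = 0.997 over 6 arrays), among 19937 genes compared. S100a10 and Il2 (both r = 0.996), Tmbim6 (r = 0.995) and Vstm4 (r = 0.994) followed. The log2 fold change was 0.77 for Nr4a1 and 0.24 to 1.12 for the other 4. Among the members, r with Nfkbia was 0.94 to 0.96 for Nfkb2, Rel, Rela, Relb and Tnfaip3, 0.82 for Nfkbiz, 0.72 for Nfkbie and 0.09 for Nfkbib. With 3 arrays per group these correlations mostly carry the difference between PJ34 and PBS, which the arrays of a group share.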

How the data were processed

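Gene expression was measured on 6 Affymetrix Mouse Gene 1.0 ST arrays, 3 of C1498 cells given PJ34 and 3 of cells given PBS, grouped by the labels. The authors deposited log2 expression values made with RMA in Affymetrix Expression Console 1.3.1, as the submitters' processing notes name. RMA corrects the background, applies quantile normalization across arrays and gives each probe set a single value. They were used as deposited. Array medians were 4.41 to 4.46 over 35556 probe sets, and any pair of arrays correlated at 0.992 to 0.995. The genome build, detection calls and scan batches are not given in the sources used here, and the number of arrays limits the precision. The study speaks of independent experiments. If these were not separate cultures, p-values measure only technical spread.

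In the gene table, 21789 probe sets have 1 gene, 1621 have several, and the other 12146 are unnamed here. The 23411 probe sets tested were those with a gene and 1 more that the study names. PJ34 was compared with PBS by limma 3.58.1 (lmFit and eBayes, R 4.3.3), two-sided, with Benjamini-Hochberg adjustment over all of them. The scripts were tested on simulated data. The members and lists were chosen with earlier results of these data known. Named were all members, up to 6 passing genes of a list or else that with the lowest p, Parp1, and the 5 genes most correlated with the member of lowest p. Some genes are not reported here.

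Alternatives were array centring, an intensity trend with robust eBayes, leaving out dim probe sets (mean below 4.43), the methods' t-test, a replicate block, all probe sets of the array, and leaving out each array. The p-values of the t-test were also Benjamini-Hochberg adjusted here, while the study's methods name no adjustment. Correlations of deviations were -0.02, 0.07 and 0.02 for same-numbered arrays and -0.07 to 0.05 for other pairs, and the main test used no pairing. These values do not settle whether the cultures were paired. With the replicate block, Rel and Relb did not pass (limma adjusted p = 0.0573 and 0.0914).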

Additional observations from a re-analysis of the deposited data

How the results depend on the processing

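Of 263 values of named genes under other settings, 187 kept their direction and side of the threshold, 70 no longer passed, 3 newly passed and 3 changed sign. The 3 sign changes were of Nfkbib, whose log2 fold change was 0.00 in the main test and -0.021 to 0.020 when 1 array was left out, above 0 without PBS replicate 3, PJ34 replicate 2 or PJ34 replicate 3. The second choice of probe set was not run, since each member has 1 probe set. The causes of the changes below were not tested.

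The main test called 403 probe sets higher and 314 lower. Leaving out 1 array gave 144 to 282 and 79 to 320, and these fits called 1 to 2 members higher and 0 to 0 lower. Among the lists they gave 0 to 1 other inhibitors higher, 1 to 1 IKK genes higher, 3 to 6 targets higher, 0 to 1 targets lower and 0 to 0 cofactors lower. An intensity trend with robust eBayes gave 1009 probe sets higher and 920 lower, 2 other inhibitors and 3 IKK genes higher, 1 adaptor higher and 1 lower, 1 target lower and 1 cofactor higher. Without dim probe sets 892 probe sets were higher and 779 lower, 3 IKK genes and 3 ligands and receptors were higher, 1 adaptor was higher and 1 lower, 1 target was lower and 1 cofactor higher. After adjustment, the methods' t-test gave 78 probe sets higher and 62 lower. It called 1 member (Nfkbia) and 1 target (Il2) higher, 0 other inhibitors higher and 0 cofactors lower. With all probe sets of the array, 112 were higher and 76 lower, with 1 member (Nfkbia) and 1 target (Il2) higher, 0 other inhibitors higher and 0 cofactors lower. With the replicate block, 220 probe sets were higher and 140 lower, 2 members (Nfkbia and Tnfaip3) were higher, 0 other inhibitors were higher and 0 cofactors lower. Centring the arrays moved the median log2 fold change by -0.02, gave 333 probe sets higher and 365 lower, so that lower calls outnumbered higher ones, and left 3 members higher, without Relb.

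With array signals there is no depth, and genes near the median of all values, such as Nfkbie, Ccl3 and Csf2, carry an unknown share of background.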
